A study of Mus musculus with 4 samples.

Results

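The genes Nmt1, Cdk2ap1, Prkcd, Rara and Ppa1 were followed across cell classes and genotypes. They are 5 of the 27998 genes counted, matched by symbol, and were picked because their levels differed between WT and Bcl3-/- cells in the same direction in both chimeras of the study. The genotype difference of these genes is therefore given as a description with no test. Their levels in the different classes of cells were not used in the choice.

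The 5 genes act at different steps of signalling and metabolism. Nmt1 encodes an N-myristoyltransferase, which attaches myristate to the amino-terminal glycine of proteins such as the kinase Lck and so helps to anchor them in membranes. Cdk2ap1 encodes a small protein that binds the cell cycle kinase CDK2 and is part of the NuRD chromatin remodelling complex. Prkcd encodes protein kinase C delta, a kinase activated by diacylglycerol and known for its role in B cell tolerance. Rara encodes the retinoic acid receptor alpha, a nuclear receptor that pairs with retinoid X receptors, and Ppa1 encodes the cytosolic inorganic pyrophosphatase, which splits the pyrophosphate released by reactions such as the charging of tRNAs. Bcl-3, the protein missing in the mutant cells, binds dimers of the NF-κB subunits p50 or p52.

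The cells were CD8+ T cells specific for GP33, a peptide of lymphocytic choriomeningitis virus (LCMV), sorted from spleen with a tetramer on day 8 after infection with the Armstrong strain. Irradiated Rag1-/- hosts, which make no mature T or B cells, carried mixed marrow from WT (B6.SJL, CD45.1) and Bcl3-/- (CD45.2) donors, all on the C57bl/6 background. Each of 2 chimeras, 1 animal each, gave 1 library per genotype (n = 2 per genotype). Libraries of the same number were taken as 1 chimera, with WT1 and KO1 as chimera 1 and WT2 and KO2 as chimera 2. Transcripts were counted at their 3′ ends as unique molecular identifiers (UMIs), each standing for 1 captured molecule. WT and Bcl3-/- cells shared a host and an infection, but the deletion cannot be told apart from the CD45 allele and the donor. All cells of the mutant marrow carried the deletion, not T cells alone, and the age of the animals is not given in the sources used here.

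Barcodes were kept as cells when they held 500 genes or more and no more than 10% of their UMIs came from mitochondrial genes. This gave 4941 (WT1), 8092 (WT2), 5366 (KO1) and 6494 (KO2) cells, from libraries of 21193300, 20358780, 22922219 and 22672343 UMIs. The median UMIs per cell were 3571, 2019, 3620.5 and 2948, so that WT2 had the most cells and the fewest UMIs per cell. Pairs of libraries shared 37 to 63 barcodes, where chance gives 36.0 to 71.3. The level of a gene is its CPM, that is its UMI count divided by all UMIs in the cells of the library or class and put on a common scale. Bcl3 itself stood at 33.2 (WT1), 108 (WT2), 27.6 (KO1) and 86.6 (KO2) CPM. The part of Bcl3 that the mutant lacks is not given in the sources used here, so counts at its 3′ end do not check the labels. Bcl3 differed more between the chimeras than between the genotypes.

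The sort was not pure. B cell and Lyz2-led clusters were found in every library, a plasma cell cluster in WT1, and a cluster led by the neutrophil gene S100a9 in KO1 (106 cells) and KO2 (98 cells) and in neither WT library. The 25 measured myeloid markers summed to 3466 (WT1), 3211 (WT2), 4540 (KO1) and 4959 (KO2) CPM. S100a8 was the most abundant of them, and 11 of the markers were higher in both KO libraries and 8 lower. The 12 measured B cell markers summed to 2473, 2676, 2628 and 2559 in the same order, with Cd74 the most abundant. Of these markers, 7 were higher in both KO libraries and 1 lower, while their sums overlapped between genotypes. Over all genes tested between genotypes, 25.7% were higher in both KO libraries and 18.8% lower. No marker of either list was at 0 in all libraries.

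The 5 genes are protein-coding and lie apart in the genome (GRCm38, GENCODE vM21). Nmt1 is at chr11:103028190-103068912 on the plus strand and Rara at chr11:98927818-98974942 on the plus strand. Cdk2ap1 is at chr5:124345417-124363082 on the minus strand, Prkcd at chr14:30595354-30626210 on the minus strand and Ppa1 at chr10:61648552-61674168 on the plus strand.

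Because Bcl-3 acts with NF-κB subunits, promoter sequence was searched for the 10-base NF-κB consensus and, as common promoter elements, for the GC box (GGGCGG), the CCAAT box (CCAAT), the E box (CACGTG) and the TATA box (TATAAA). The search took in both strands of the 250 bases before the most upstream start that RefSeq lists for a gene (GRCm38.p6), and overlapping matches were counted separately. The promoters of Rara (the member with NF-κB matches), Cdk2ap1 (the member with the largest genotype difference) and Ppa1 (the member lower in Bcl3-/- cells) are printed from RefSeq, 5′ to 3′, with matches to any of the elements in capitals and bases inside annotated exons left out.
Rara (chr11:98937446-98937695, plus strand): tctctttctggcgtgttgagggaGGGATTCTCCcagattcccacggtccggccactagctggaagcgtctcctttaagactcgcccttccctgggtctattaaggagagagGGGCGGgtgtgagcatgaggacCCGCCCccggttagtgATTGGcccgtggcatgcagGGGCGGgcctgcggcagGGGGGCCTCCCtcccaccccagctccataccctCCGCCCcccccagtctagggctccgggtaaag
Cdk2ap1 (chr5:124354672-124354878, minus strand): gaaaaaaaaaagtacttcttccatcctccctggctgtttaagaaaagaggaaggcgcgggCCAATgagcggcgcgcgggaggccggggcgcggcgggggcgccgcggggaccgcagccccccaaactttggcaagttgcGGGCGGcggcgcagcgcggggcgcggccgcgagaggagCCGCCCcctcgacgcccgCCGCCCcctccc
Ppa1 (chr10:61648371-61648551, plus strand): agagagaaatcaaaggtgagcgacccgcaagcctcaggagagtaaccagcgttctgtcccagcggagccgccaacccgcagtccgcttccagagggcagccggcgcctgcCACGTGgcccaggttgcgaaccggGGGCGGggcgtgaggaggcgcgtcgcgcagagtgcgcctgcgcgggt

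Rara held 3 matches to the NF-κB consensus, 1 near the 5′ end of the stretch and a pair that overlap each other further on. The other 4 members held 0, where 7.0% of 27025 promoters held at least 1. All 5 members held a GC box, with 1 match for Nmt1, 3 for Cdk2ap1, 4 for Prkcd, 4 for Rara and 3 for Ppa1, of which 1 lies in the stretch printed for Ppa1 and the rest in the exon after it. GC boxes were found in 33.0% of all promoters. Prkcd and Ppa1 held an E box (6.0% of all promoters), Nmt1, Cdk2ap1 and Rara a CCAAT box (34.5%), and Prkcd a TATA box (13%). The GC content was 54.4% for Nmt1, 72.4% for Cdk2ap1, 67.6% for Prkcd, 65.2% for Rara and 72.0% for Ppa1, and the median promoter had 52.0%. The starts used for Nmt1, Cdk2ap1, Rara and Ppa1 lie inside longer GENCODE gene models, whose own starts were not searched. For Nmt1 all 250 bases searched are annotated as exon, so that its GC box, CCAAT box and GC content are those of an exon. For Ppa1 69 of the bases, for Cdk2ap1 43 and for Prkcd 2 are exonic.

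Between genotypes, Cdk2ap1 and Nmt1 differed the most, Prkcd and Rara less, and Ppa1 was the member that was lower in the mutant. Each molecule is counted at its 3′ end, so no correction for transcript length was made.

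Nmt1 was at 26.8 (WT1), 25.7 (WT2), 67.1 (KO1) and 69.6 (KO2) CPM. The libraries of a genotype were alike, and the genotypes lay far apart. The mean level was 26.3 ± 0.803 in WT and 68.4 ± 1.78 in Bcl3-/- cells (SD, n = 2), 2.60-fold higher, with a log2 ratio of 1.32 in chimera 1 and 1.44 in chimera 2.

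Cdk2ap1 was at 29.1 (WT1), 26.8 (WT2), 79.8 (KO1) and 85.8 (KO2) CPM. The genotypes did not overlap here either, and the mean level was 27.9 ± 1.61 in WT and 82.8 ± 4.24 in Bcl3-/- cells (SD, n = 2), 2.96-fold higher. The log2 ratio was 1.46 in chimera 1 and 1.68 in chimera 2. Of the 31-base words in the last 400 bases of its annotated transcripts, 89.7% also occur in Gm12184, Gm29485 or Gm4252, near-copies elsewhere in the genome, so that the counts of Cdk2ap1 are uncertain. Gm12184 itself was at 4.01, 2.13, 3.85 and 6.60 CPM in the same order of libraries.

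Prkcd was at 24.7 (WT1), 23.4 (WT2), 40.8 (KO1) and 52.3 (KO2) CPM. Both mutant libraries were above both WT libraries, and KO2 was above KO1. The mean level was 24.0 ± 0.953 in WT and 46.5 ± 8.10 in Bcl3-/- cells (SD, n = 2), 1.94-fold higher, with a log2 ratio of 0.72 in chimera 1 and 1.16 in chimera 2.

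Rara was at 22.8 (WT1), 21.9 (WT2), 35.8 (KO1) and 42.5 (KO2) CPM, the lowest of the 5 genes in each library. Its mean level was 22.3 ± 0.654 in WT and 39.1 ± 4.74 in Bcl3-/- cells (SD, n = 2), 1.75-fold higher, with a log2 ratio of 0.65 in chimera 1 and 0.96 in chimera 2. As with Prkcd, the ratio was larger in chimera 2.

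Ppa1 was at 62.8 (WT1), 63.9 (WT2), 40.3 (KO1) and 44.4 (KO2) CPM. It was the most abundant of the 5 genes in WT cells, and both mutant libraries were lower. The mean level was 63.4 ± 0.747 in WT and 42.3 ± 2.91 in Bcl3-/- cells (SD, n = 2), 0.668 times that of WT, with a log2 ratio of -0.64 in chimera 1 and -0.53 in chimera 2.

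**Figure D1:**
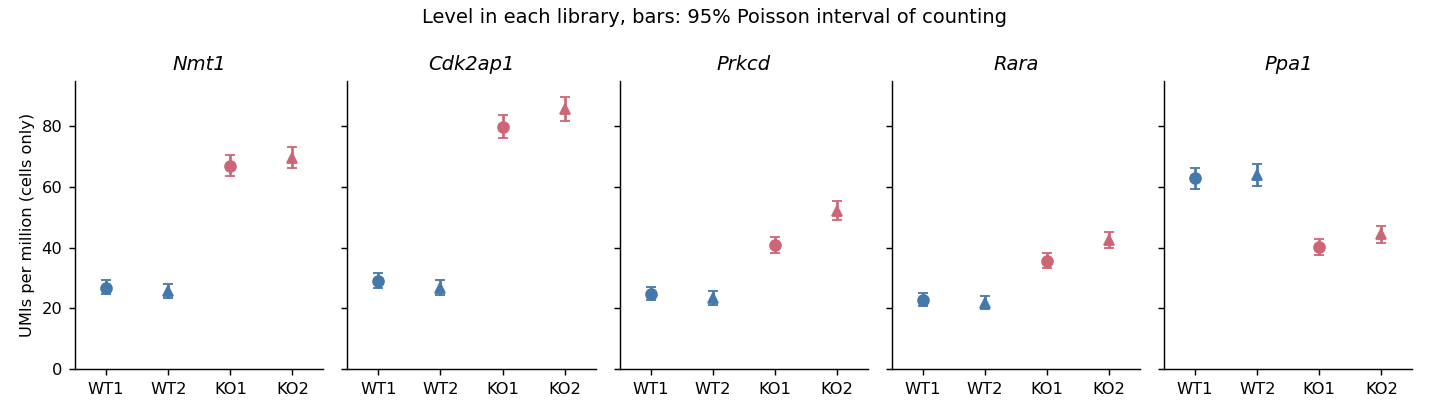
Level of each gene (panels) in each library (x axis) as CPM (y axis, from 0), with WT in blue, Bcl3-/- in red, circles for chimera 1, triangles for chimera 2 and bars for the 95% Poisson interval, which covers counting error only. Nmt1 and Cdk2ap1 show the widest gap between genotypes, and Ppa1 is the gene with the red points below the blue ones.

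All 5 genes passed the filter on low counts. The fewest UMIs were 420, for Rara in WT2. In the edgeR fit over 11566 genes, 42 genes (0.363%) passed an adjusted p of 0.05. Of these, 33 were higher (0.285%) and 9 lower (0.0778%) in Bcl3-/- cells. With the chimera as a block, 1116 genes passed (9.65%). The genotypes did not overlap for 44.5% of genes (25.7% higher and 18.8% lower in both KO libraries). These counts describe the contrast over all genes, and no call is given for the members, which were chosen on it.

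With the B cell, plasma cell, S100a9-led and Lyz2-led clusters left out, the log2 ratios in chimeras 1 and 2 were 1.31 and 1.46 for Nmt1, 1.5 and 1.63 for Cdk2ap1, 0.87 and 1.30 for Prkcd, 0.61 and 0.98 for Rara, and -0.60 and -0.54 for Ppa1. These clusters held 27.5% of the Prkcd UMIs, against 8.40% for Nmt1, 8.38% for Cdk2ap1, 9.95% for Rara and 9.28% for Ppa1. Prkcd in the remaining cells was at 17.5 (WT1), 17.5 (WT2), 32.1 (KO1) and 43.0 (KO2) CPM. The summed myeloid markers in those cells were at 2314, 1672, 1152 and 881 CPM. The S100a9-led cluster was found, and so left out, in the mutant libraries alone, so these sums do not compare myeloid cells between the genotypes. The part of myeloid cells in the Prkcd ratio was not tested.

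The ratios were also described at equal depth. These are UMIs drawn from the same libraries that the members were chosen on, so this is no separate test. With 4916 cells drawn from each library and 1000 UMIs from each cell, the log2 ratios were 1.43 and 1.39 for Nmt1, 1.54 and 1.64 for Cdk2ap1, 1.00 and 1.26 for Prkcd, 0.70 and 0.89 for Rara, and -0.73 and -0.46 for Ppa1.

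At 1000 UMIs per cell, few cells showed any of the transcripts. Nmt1 had a UMI in 2.54% (95% interval 2.12 to 3.02) of WT1 cells, 2.55% (95% interval 2.22 to 2.93) of WT2, 6.60% (95% interval 5.95 to 7.30) of KO1 and 6.27% (95% interval 5.69 to 6.89) of KO2, with exact Clopper-Pearson intervals. For Cdk2ap1 the shares were 2.50%, 2.42%, 6.93% and 7.66% in the same order, for Prkcd 2.01%, 1.94%, 3.81% and 4.94%, for Rara 2.30%, 2.21%, 3.83% and 3.95% and for Ppa1 5.11%, 5.05%, 3.16% and 3.69%. For each gene both mutant libraries lay on the same side of both WT libraries. The members were chosen on these same libraries, so this is no separate test. The intervals count cells of a library, which are not replicates of a genotype. Without thinning, Ppa1 had a UMI in 19.7%, 12.4%, 13.3% and 11.7% of cells, and WT2, the shallowest library, lay between the KO libraries.

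No sampled cell type is known to lack these genes, so barcodes of 1 to 100 UMIs, taken as empty droplets, show the free RNA. There, Nmt1 was at 21.1 (WT1), 20.2 (WT2), 33.6 (KO1) and 36.1 (KO2) CPM and Cdk2ap1 at 18.5, 21.8, 42.5 and 58.7, with the genotypes in the same order as in cells and smaller gaps. Prkcd was at 25.1, 20.2, 24.7 and 40.2, Rara at 22.4, 20.2, 21.8 and 37.1 and Ppa1 at 52.8, 46.6, 37.6 and 52.5, and for these genes the genotypes overlapped. The part of free RNA in the shares of cells was not tested.

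The levels in the classes of cells were compared next. Clusters were grouped by marker genes into MPEC-gene cells (genes of memory precursor effector cells, MPECs, and naive T cells, such as Tcf7, Id3 and Ccr7), terminal effector-like (Klrg1, Cx3cr1, Gzma), cycling-like (Birc5, Ccnb2), interferon-stimulated (Ifit1, Isg15) and B cell-like cells (Cd79a, Ms4a1), and a Lyz2-led class that also held C1qb and MHC class II genes. Tnfrsf4 was among the leading genes of the MPEC-gene cluster in all 4 libraries, and Cd4 in KO1. A KO1 cluster of 757 cells led by Tcf7, Il7r and Slamf6 had too few markers and stayed in the reference, and the MPEC-gene class of KO2 held 521 cells, or 187 at a cluster resolution of 1.2. Clusters named from no list, 46.6% to 58.2% of the cells of a library, were the reference for each class in edgeR over 9435 genes, with the library as a block. The 5 genes themselves had no part in the clustering. MPEC-gene cells were 6.25%, 5.61%, 2.40% and 8.02% of the cells of WT1, WT2, KO1 and KO2, terminal effector-like cells 11.3%, 13.3%, 22.4% and 17.0%, interferon-stimulated cells 7.79%, 5.26%, 7.25% and 8.87%, B cell-like cells 2.13%, 1.48%, 2.50% and 1.96% and Lyz2-led cells 2.37%, 1.80%, 2.05% and 1.76%. These shares depended on the clustering. At resolution 1.2 the interferon-stimulated shares were 2.31%, 4.68%, 9.41% and 8.79%, with both mutant libraries above both WT libraries, and with 30 principal components 2.77%, 3.66%, 2.31% and 2.68%, with both below. MPEC-gene cells were 6.94%, 5.67%, 2.44% and 2.88% and 6.27%, 5.15%, 2.59% and 2.88% under these settings, and terminal effector-like cells 11.4%, 10.1%, 18.8% and 13.7% and 8.28%, 13.6%, 17.1% and 16.6%.

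Cycling-like cells were 13.8%, 12.96%, 6.78% and 9.93% in the same order. This class held different clusters in each library. A cluster with leading cycling genes but more leading erythroid or basophil genes was set aside in WT1, KO1 and KO2, while WT2 kept one of 470 cells with Hbb-bs, Hba-a1 and Hbb-bt among its leading genes. With the clusters set aside counted in, the shares were 16.5%, 12.96%, 9.91% and 12.8%, and with the WT2 cluster left out instead its share was 7.16%. The share of WT2 thus lay above or below that of KO2 by this choice. The 4 calls of members in cycling-like cells given next were also made under both of these choices, which were added after seeing the data.

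Of 30 contrasts between a class and the reference, 13 passed an adjusted p of 0.05. They took in all 5 genes in the Lyz2-led class, where 55.2% of all genes passed, and 4 in cycling-like cells (35.8%). In B cell-like cells 1 passed (34.7% of all genes), in MPEC-gene cells 1 (13.8%), in interferon-stimulated cells 1 (4.22%) and in terminal effector-like cells 1 (6.42%). The share of all genes called higher was 30% in the Lyz2-led class, 17.9% in cycling-like, 18% in B cell-like, 7.58% in MPEC-gene, 3.23% in interferon-stimulated and 3.34% in terminal effector-like cells. The share called lower was 25.2%, 17.8%, 16.7%, 6.2%, 0.986% and 3.08% in that order.

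Prkcd had the steepest profile, with the highest level in the Lyz2-led class. It was there at 165 (WT1), 127 (WT2), 221 (KO1) and 196 (KO2) CPM, and in the reference at 18.3, 17.5, 30.4 and 40.1. The class was higher in 4 of 4 libraries (log2 difference 2.86 ± 0.123 SE, edgeR adjusted p = 5.48e-21). B cell-like cells came next at 40.9, 46.4, 67.6 and 109 CPM, also higher in 4 of 4 libraries (log2 difference 1.41 ± 0.209 SE, edgeR adjusted p = 9.53e-07). The other classes had means of 24.3 to 33.0 CPM and did not pass the test. At 1000 UMIs per cell, 6.84%, 12.3%, 19.1% and 20.2% of Lyz2-led cells had a Prkcd UMI, against 2.05%, 1.81%, 3.15% and 4.01% of reference cells.

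Ppa1 varied the most among the T cell classes, from interferon-stimulated cells at the upper end to terminal effector-like cells at the lower. Interferon-stimulated cells were at 96.1 (WT1), 99.5 (WT2), 54.6 (KO1) and 71.6 (KO2) CPM and the reference at 50.03, 47.4, 30.2 and 31.7. They were higher in 4 of 4 libraries (log2 difference 1.06 ± 0.131 SE, edgeR adjusted p = 2.07e-07). Cycling-like cells were at 87.4, 90.1, 48.9 and 55.2 CPM, higher in 4 of 4 libraries (log2 difference 0.78 ± 0.115 SE, edgeR adjusted p = 1.25e-06). MPEC-gene cells were at 71.4, 73.1, 64.8 and 45.9, higher in 4 of 4 libraries (log2 difference 0.62 ± 0.151 SE, edgeR adjusted p = 0.00373). These 3 classes thus stood above the reference in every library.

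Terminal effector-like cells had the lowest Ppa1 level, 31.4 (WT1), 36.5 (WT2), 21.8 (KO1) and 20.6 (KO2) CPM, below the reference in 4 of 4 libraries (log2 difference -0.48 ± 0.14 SE, edgeR adjusted p = 0.0298). The call was lost when any of the 4 libraries was left out (edgeR adjusted p from 0.0567 to 0.0975). In the Lyz2-led class Ppa1 was at 44.6, 94.1, 39.9 and 92.5 CPM, with a wider gap between chimeras than between genotypes. It was called higher (log2 difference 0.89 ± 0.152 SE, edgeR adjusted p = 5.73e-06) with 3 of 4 libraries above the reference, but the difference was 0.04 (edgeR adjusted p = 0.892) without cells over 3 times the median UMI count.

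Rara was highest in the Lyz2-led class and in terminal effector-like cells and lowest in cycling-like cells. Terminal effector-like cells were at 29.7 (WT1), 32.1 (WT2), 44.2 (KO1) and 52.0 (KO2) CPM and the reference at 25.2, 22.9, 34.3 and 40.6, higher in 4 of 4 libraries, but the difference did not pass (log2 difference 0.39 ± 0.13 SE, edgeR adjusted p = 0.0627), though it did with the clusters set aside counted as cycling (edgeR adjusted p = 0.0379). Cycling-like cells were at 13.3, 12.7, 22.7 and 44.0, below the reference in 3 of 4 libraries, with KO2 above it (log2 difference -0.52 ± 0.14 SE, edgeR adjusted p = 0.00348). This call was lost without WT1 (edgeR adjusted p = 0.0814). At 1000 UMIs per cell, 1.91% (WT1), 1.25% (WT2), 3.85% (KO1) and 5.12% (KO2) of cycling-like cells had a Rara UMI. In reference cells the shares were 2.28%, 2.225%, 3.22% and 3.84% in the same order. By that share both WT libraries lay below the reference and both mutant libraries above it. These shares rest on 13, 13, 14 and 33 cycling-like cells with a Rara UMI. The Clopper-Pearson intervals of WT1 (1.02% to 3.24%), KO1 (2.12% to 6.37%) and KO2 (3.55% to 7.11%) held the reference share. That of WT2 (0.669% to 2.13%) lay below it. By CPM, KO1 lay below the reference, so the side on which KO1 lay depended on the measure. The Lyz2-led class was at 37.7, 35.6, 45.8 and 46.2, higher in 4 of 4 libraries (log2 difference 0.51 ± 0.17 SE, edgeR adjusted p = 0.0116), and the call was lost without WT1 (edgeR adjusted p = 0.0702) or WT2 (edgeR adjusted p = 0.0599).

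Nmt1 and Cdk2ap1 were called higher in cycling-like cells and in the Lyz2-led class and passed in no other class. Nmt1 was at 31.8 (WT1), 32.2 (WT2), 91.4 (KO1) and 81.2 (KO2) CPM in cycling-like cells and at 25.3, 21.9, 64.0 and 68.3 in the reference, higher in 4 of 4 libraries (log2 difference 0.36 ± 0.09 SE, edgeR adjusted p = 0.00198). In the Lyz2-led class it was at 30.9, 38.7, 89.3 and 108, higher in 4 of 4 libraries (log2 difference 0.67 ± 0.114 SE, edgeR adjusted p = 6.13e-06). In both the cycling-like and the Lyz2-led class the mutant libraries remained far above the WT libraries.

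Cdk2ap1 was at 37.0 (WT1), 41.5 (WT2), 99.8 (KO1) and 96.5 (KO2) CPM in cycling-like cells and at 23.4, 24.4, 70.3 and 74.8 in the reference, higher in 4 of 4 libraries (log2 difference 0.51 ± 0.111 SE, edgeR adjusted p = 0.000474). In the Lyz2-led class it was at 34.3, 27.2, 77.5 and 164, with KO2 far above the other libraries, higher in 4 of 4 libraries (log2 difference 0.72 ± 0.142 SE, edgeR adjusted p = 4.92e-05). That call was lost without KO2 (edgeR adjusted p = 0.0544) and without cells over 3 times the median UMI count (edgeR adjusted p = 0.356).

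**Figure D2:**
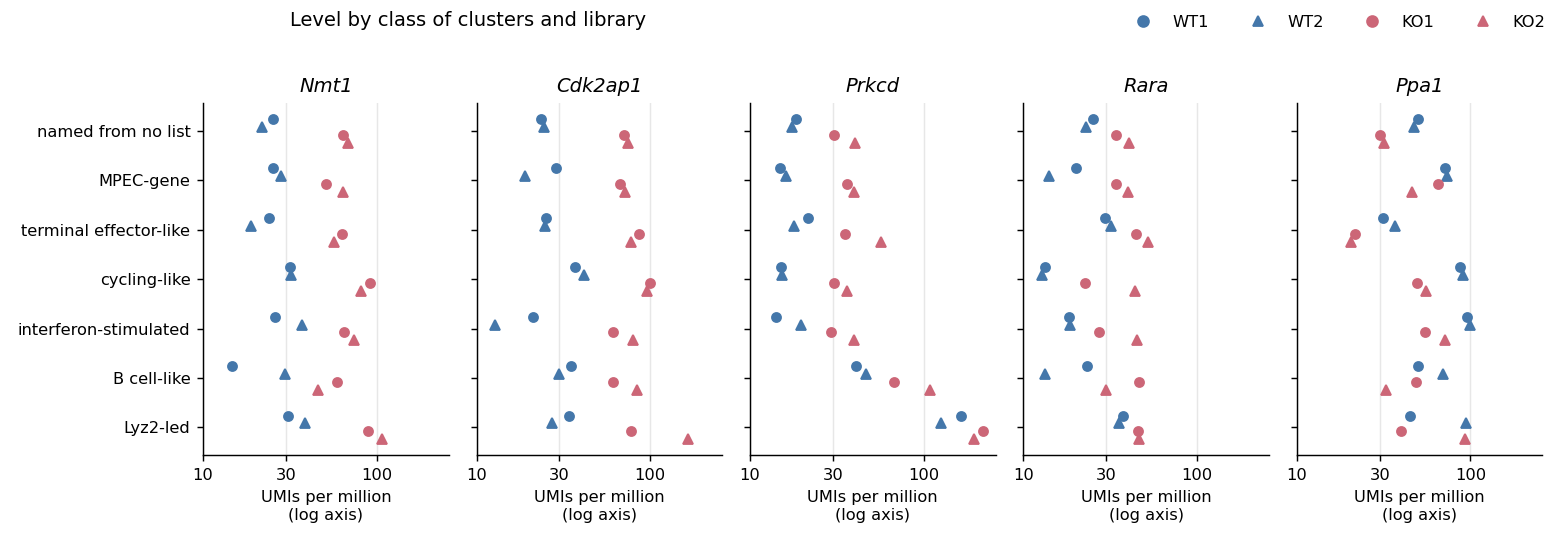
Level of each gene (panels) by class of clusters (rows) as CPM of the class (x axis, log scale), 1 point per library, with WT in blue, Bcl3-/- in red, circles for chimera 1 and triangles for chimera 2. Prkcd lies farthest right in the Lyz2-led class, and Ppa1 farthest left in terminal effector-like cells.

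Lyz2-led cells had medians of 6937, 5447, 6920.5 and 6460.5 UMIs in WT1, WT2, KO1 and KO2, above the medians of their libraries, and 53.8%, 44.5%, 50.9% and 41.2% of them had a Cd8a UMI. Droplets with more than 1 cell were not called, and their part in this class was not tested beyond the limit on UMIs above. At 1000 UMIs per cell, 6 of the 30 contrasts passed: both of Prkcd, Cdk2ap1 in the Lyz2-led class, and Ppa1 in cycling-like, interferon-stimulated and terminal effector-like cells. The calls of Nmt1 and Rara, of Cdk2ap1 in cycling-like cells, and of Ppa1 in MPEC-gene and Lyz2-led cells were lost, at a depth with fewer UMIs in every sum. There, 3.67%, 3.375%, 9.34% and 7.44% of cycling-like cells had an Nmt1 UMI. Reference cells were lower in each library, at 2.24%, 2.16%, 6.30% and 6.59%. For Ppa1, Lyz2-led cells were at 4.27%, 4.11%, 3.64% and 6.14%. The reference was at 4.37%, 4.34%, 2.78% and 3.21%, above them in WT and below them in the mutant. The Lyz2-led shares rest on 5, 6, 4 and 7 cells with a Ppa1 UMI. Their Clopper-Pearson intervals were 1.40% to 9.69%, 1.52% to 8.73%, 0.9995% to 9.05% and 2.50% to 12.2%. Each held the reference share of its library, so they do not show on which side of the reference the class lay.

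The genotype ratio was then set out by class, again as a description. Nmt1, Cdk2ap1, Prkcd and Rara were higher in Bcl3-/- cells in all 7 classes, the reference included, in both chimeras, and Ppa1 was lower in all 7. For Nmt1 the log2 ratios ran from 0.63 to 2.02, both ends in B cell-like cells, where a library held 5 to 28 UMIs of it. For Cdk2ap1 they ran from 0.81 in B cell-like cells of chimera 1 to 2.64 in interferon-stimulated cells of chimera 2. The WT sides of these ratios held 12 (WT1) and 11 (WT2) UMIs of it. The smallest ratios of Prkcd were in the Lyz2-led class, 0.43 in chimera 1 and 0.63 in chimera 2, and the largest was 1.66 in terminal effector-like cells of chimera 2. In chimera 1 the same class had 0.70, below the 0.73 of the reference.

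The smallest ratios of Rara were in the Lyz2-led class as well, 0.28 and 0.38, and the largest was 1.79 in cycling-like cells of chimera 2. For Ppa1 the ratios were -0.16 and -0.03 in the Lyz2-led class, -0.84 and -0.71 in cycling-like cells, and -0.03 and -1.09 in B cell-like cells, where a library held 12 to 23 UMIs of it.

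Whether the genotype ratio differed between a class and the reference was tested with genotype by class terms in edgeR. None of the 30 terms of the 5 genes passed an adjusted p of 0.05 (0 also in DESeq2, and 2 had an unadjusted p under 0.05 in edgeR). Over all genes, 0.117% passed in the Lyz2-led class, 0.0848% in terminal effector-like, 0.0106% in MPEC-gene, 0.0106% in cycling-like, and 0% in B cell-like and interferon-stimulated cells. The lowest p values were those of Rara in cycling-like cells (difference of log2 ratios 0.71 ± 0.249 SE, edgeR unadjusted p = 0.00783, adjusted p = 0.727) and Prkcd in the Lyz2-led class (difference of log2 ratios -0.50 ± 0.215 SE, edgeR unadjusted p = 0.0269, adjusted p = 0.774). The term of Prkcd changed sign at 1000 UMIs per cell (0.125). Terms that do not pass do not show that the ratios are alike.

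**Figure D3:**
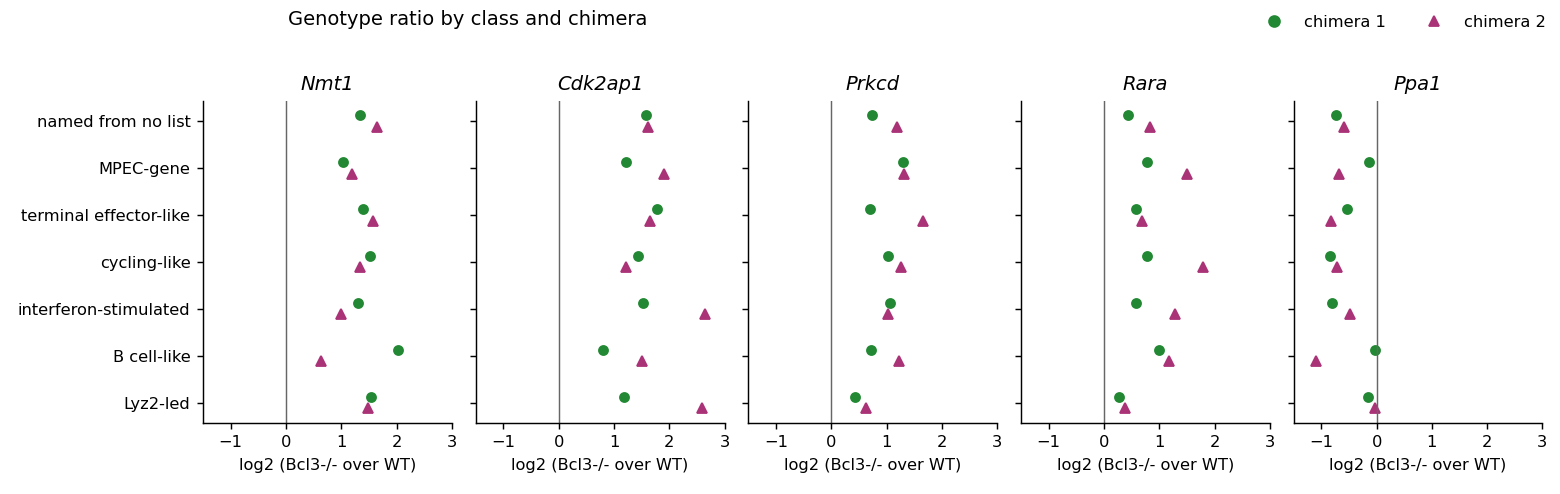
Log2 ratio of Bcl3-/- over WT (x axis, line at 0) for each gene (panels) by class of clusters (rows), with green circles for chimera 1 and purple triangles for chimera 2. Points of Nmt1, Cdk2ap1, Prkcd and Rara lie right of 0 and those of Ppa1 left of it.

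Genes with a like pattern were sought over 28 sums, 4 libraries by 7 classes, each centred within its library, among 6998 genes with a mean of at least 10 CPM. The closest to Prkcd by Pearson's r were Wfdc17 (0.981), Grn (0.977) and Nrros (0.969), genes known from macrophages. The closest to Cdk2ap1 were Nhp2 (0.853), Ranbp1 (0.846) and Ybx1 (0.823), and to Nmt1 Txn1 (0.834), Ctnna1 (0.816) and Rbbp8 (0.804). The closest to Ppa1 were Nmral1 (0.814), Isg20 (0.781) and Mif (0.768), of which Isg20 is an interferon-stimulated gene. The closest to Rara, Ccdc71l (0.709), Glul (0.705) and Hcfc1r1 (0.704), were less alike. Among the members, the highest r was that of Nmt1 with Ppa1 (0.542), followed by Prkcd with Rara (0.494), and the lowest that of Rara with Ppa1 (-0.377). The sums share libraries and differ in depth, so r is a description.

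The other genes of the members' pathways were compared between genotypes. In edgeR without the block, 0 genes of the 5 lists passed. With the chimera as a block, 4.81% of all genes were called higher and 4.84% lower in Bcl3-/- cells, and the genotype values that follow are from that fit. Class values are log2 differences from the reference clusters. The median log2 ratio of all genes was 0.007, and 1808 of 11566 had an unadjusted p under 0.05 without the block.

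In the N-myristoylation list (Nmt2, methionine aminopeptidases and myristoylated proteins), 31 of 33 genes were tested, with a median log2 ratio of 0.075. Without the block 8 had an unadjusted p under 0.05 in edgeR, and the calls with it were 3 higher and 0 lower. Ppp3r1, the regulatory subunit of calcineurin, was at 36.3 (WT1), 22.4 (WT2), 43.0 (KO1) and 56.3 (KO2) CPM (0.76 ± 0.165 SE, edgeR adjusted p = 0.0105). Fmnl1, a formin of blood cells, was at 118, 100.3, 139.8 and 149 (0.39 ± 0.076 SE, edgeR adjusted p = 0.0054), and Arf6, a small GTPase of the plasma membrane, at 251, 235, 293 and 312 (0.30 ± 0.068 SE, edgeR adjusted p = 0.0142). For these 3 genes both mutant libraries were above both WT libraries. Across classes, Ppp3r1 was lower in Lyz2-led (-0.34, edgeR adjusted p = 0.0475) cells, Fmnl1 was lower in B cell-like (-0.96, edgeR adjusted p = 4.79e-07), Lyz2-led (-0.54, edgeR adjusted p = 9.74e-06) and interferon-stimulated (-0.34, edgeR adjusted p = 0.00889) cells, and Arf6 was called in no class. The part of the class shares in their levels was not tested. Nmt2, the paralog of Nmt1, was at 11.9, 13.5, 14.95 and 17.5 and was not called (0.33 ± 0.14 SE, edgeR adjusted p = 0.163).

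In the list of CDK2 partners and NuRD subunits, 21 of 21 genes were tested, with a median log2 ratio of -0.024. Without the block 3 had an unadjusted p under 0.05 in edgeR, and the calls with it were 0 higher and 1 lower. That gene was Rbbp7, a histone-binding subunit, at 103 (WT1), 112 (WT2), 83.4 (KO1) and 100.5 (KO2) CPM (-0.25 ± 0.07 SE, edgeR adjusted p = 0.0389). Across classes, Rbbp7 was higher in cycling-like (0.90, edgeR adjusted p = 2.33e-09) cells and in no other class, and the part of the cycling share in its level was not tested. Cdk2ap2, the paralog of Cdk2ap1, was at 357, 390, 386 and 377 and was not called (0.02 ± 0.072 SE, edgeR adjusted p = 0.929), so that its libraries lacked the gap seen for Cdk2ap1.

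In the list of protein kinase C and diacylglycerol signalling, 23 of 25 genes were tested, with a median log2 ratio of 0.141. Without the block 3 had an unadjusted p under 0.05 in edgeR, and the calls with it were 1 higher and 1 lower. Plcg1, a phospholipase that makes diacylglycerol downstream of the T cell receptor, was at 20.6 (WT1), 21.2 (WT2), 25.7 (KO1) and 32.3 (KO2) CPM (0.45 ± 0.104 SE, edgeR adjusted p = 0.0145). Prkca, a classical isoform, was lower in both mutant libraries, at 77.2, 80.5, 70.3 and 54.3 (-0.37 ± 0.097 SE, edgeR adjusted p = 0.0301). Across classes, Plcg1 was lower in B cell-like (-1.29, edgeR adjusted p = 0.00047), Lyz2-led (-0.80, edgeR adjusted p = 0.000254) and cycling-like (-0.40, edgeR adjusted p = 0.00552) cells, and Prkca was lower in B cell-like (-1.09, edgeR adjusted p = 6.04e-06), Lyz2-led (-1.92, edgeR adjusted p = 8.23e-14) and cycling-like (-0.37, edgeR adjusted p = 0.000617) cells. The part of the class shares in their levels was not tested. Prkcq, the isoform of the T cell synapse, was at 151, 154, 156 and 176 and was not called (0.10 ± 0.067 SE, edgeR adjusted p = 0.408). Prkch (0.17 ± 0.067 SE, edgeR adjusted p = 0.135) and Prkcb (0.08 ± 0.078 SE, edgeR adjusted p = 0.579) were not called either.

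The other isoforms that entered the fit had their own profiles across classes. In the Lyz2-led class, where Prkcd was highest, Prkcq (-2.28, edgeR adjusted p = 1.06e-18), Prkca (-1.92, edgeR adjusted p = 8.23e-14), Prkch (-1.66, edgeR adjusted p = 1.64e-13), Prkcz (-2.81, edgeR adjusted p = 1.15e-08) and Prkcb (-0.61, edgeR adjusted p = 0.000188) were lower than in the reference by log2 difference, and Prkce (0.20, edgeR adjusted p = 0.638) was not called. In B cell-like cells Prkcb (0.96, edgeR adjusted p = 4.6e-07) and Prkce (1.48, edgeR adjusted p = 0.0019) were higher, as Prkcd was. There Prkch (-2.46, edgeR adjusted p = 2.64e-12), Prkcq (-2.22, edgeR adjusted p = 3.34e-14) and Prkca (-1.09, edgeR adjusted p = 6.04e-06) were lower, and Prkcz (-0.04, edgeR adjusted p = 0.937) was not called.

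In the retinoic acid list, 19 of 30 genes were tested, with a median log2 ratio of 0.004. Without the block 3 had an unadjusted p under 0.05 in edgeR, and the calls with it were 0 higher and 3 lower. Itgb7, the beta chain of a gut-homing integrin, was at 780.2 (WT1), 986 (WT2), 620.1 (KO1) and 766 (KO2) CPM (-0.36 ± 0.07 SE, edgeR adjusted p = 0.00513). Asb2, a subunit of a ubiquitin ligase, was at 6.29, 22.8, 4.22 and 11.9 (-0.81 ± 0.168 SE, edgeR adjusted p = 0.00801), and Fabp5, a fatty acid binding protein that also carries retinoic acid, at 25.2, 16.7, 17.1 and 14.2 (-0.42 ± 0.123 SE, edgeR adjusted p = 0.0466). For Asb2 and Fabp5 the genotypes overlapped, and the mutant library was lower within each chimera. Across classes, Itgb7 was lower in B cell-like (-1.52, edgeR adjusted p = 6.17e-16), Lyz2-led (-1.21, edgeR adjusted p = 1.71e-15) and MPEC-gene (-0.40, edgeR adjusted p = 0.000172) cells. Asb2 was higher in B cell-like (1.47, edgeR adjusted p = 0.0205) and Lyz2-led (2.15, edgeR adjusted p = 2.02e-07) cells, and Fabp5 was higher in Lyz2-led (3.44, edgeR adjusted p = 4.86e-19) and cycling-like (1.59, edgeR adjusted p = 1.17e-09) cells. The part of the class shares in the levels of these 3 genes was not tested. The receptors Rxrb (41.8, 48.1, 45.6 and 45.7, edgeR adjusted p = 0.965), Rxra (1.29, 1.51, 1.93 and 1.58, edgeR adjusted p = 0.642) and Rarg (8.62, 10.7, 8.94 and 10.6, edgeR adjusted p = 0.993) were not called, and Rarb and Rxrg had 0 UMIs in the cells of all libraries.

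In the pyrophosphate list, which holds the tRNA synthetases, 28 of 31 genes were tested, with a median log2 ratio of -0.115. Without the block 6 had an unadjusted p under 0.05 in edgeR, and the calls with it were 0 higher and 4 lower. The 4 genes charge tRNAs with amino acids. Across classes, Vars was higher in B cell-like (1.93, edgeR adjusted p = 1.16e-15), Lyz2-led (0.39, edgeR adjusted p = 0.00524), MPEC-gene (0.42, edgeR adjusted p = 0.00832), cycling-like (0.96, edgeR adjusted p = 1.39e-11) and interferon-stimulated (0.38, edgeR adjusted p = 0.0262) cells and lower in terminal effector-like (-0.48, edgeR adjusted p = 0.00176) cells. Rars was higher in B cell-like (0.58, edgeR adjusted p = 0.02) and cycling-like (0.70, edgeR adjusted p = 7.67e-07) cells, and Eprs was higher in B cell-like (0.42, edgeR adjusted p = 0.0329) cells and lower in Lyz2-led (-0.31, edgeR adjusted p = 0.0368) cells. Lars was called in no class. The part of the class shares in the levels of these 4 genes was not tested. Rars was at 37.8 (WT1), 46.5 (WT2), 30.6 (KO1) and 34.5 (KO2) CPM (-0.39 ± 0.089 SE, edgeR adjusted p = 0.0145), Eprs at 49.97, 61.3, 41.4 and 47.1 (-0.34 ± 0.081 SE, edgeR adjusted p = 0.0161) and Lars at 24.5, 33.8, 19.9 and 23.5 (-0.43 ± 0.104 SE, edgeR adjusted p = 0.0191). The other one, Vars, was at 73.2, 76.8, 57.7 and 66.4 (-0.29 ± 0.073 SE, edgeR adjusted p = 0.0218) and is named here after its values were seen. Ppa2, the mitochondrial pyrophosphatase, was at 36.8, 35.4, 35.7 and 40.7 and was not called (0.06 ± 0.089 SE, edgeR adjusted p = 0.731).

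**Figure D4:**
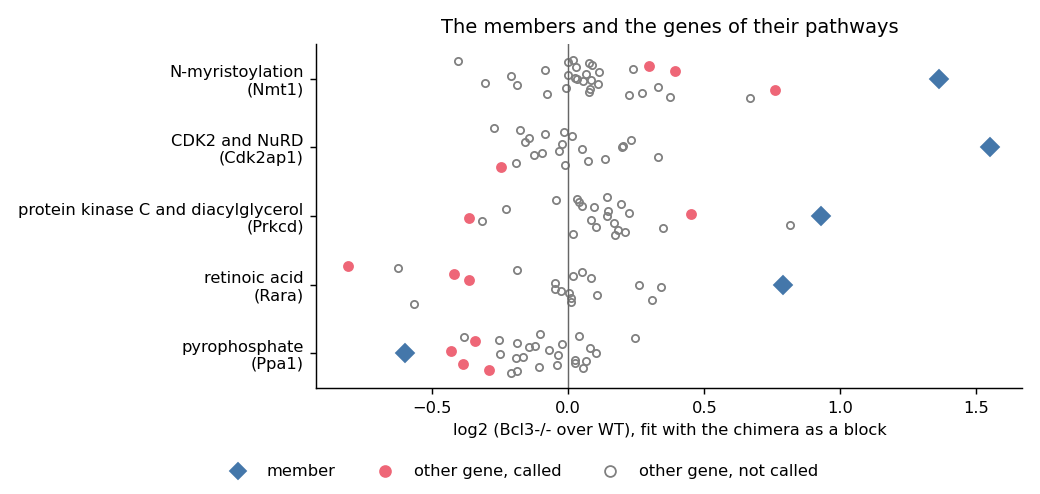
Log2 ratio of Bcl3-/- over WT in the fit with the chimera as a block (x axis) for the genes of each list (rows), with members as blue diamonds, called genes as filled red circles and other genes as open circles. Members were chosen for this ratio, and the filled circles lie right of 0 in the N-myristoylation list and left of 0 in the retinoic acid and pyrophosphate lists.

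The neighbours of the members on the chromosome were compared last. Of the 10 nearest genes on either side with a mean of at least 10 CPM, 0 passed in edgeR without the block and 1 with it, where 9.65% of all genes did. This was Top2a, a topoisomerase of dividing cells 18001 bases from Rara, at 53.2 (WT1), 74.6 (WT2), 39.1 (KO1) and 57.9 (KO2) CPM (log2 ratio -0.42, edgeR adjusted p = 0.00316), lower in the mutant within each chimera. Top2a is one of the cycling markers, and the part of the cycling share in its level was not tested. Sbno1, 5620 bases from Cdk2ap1, was at 79.6, 83.5, 74.5 and 82.1, and Sar1a, 6131 bases from Ppa1, at 124, 127, 103 and 114 (log2 ratio -0.22, edgeR adjusted p = 0.0546). Dcakd, which overlaps Nmt1 on the opposite strand, was at 12.8, 14.6, 12.3 and 13.5, without the gap seen for Nmt1.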

How the data were processed

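Sorted GP33 tetramer+ CD8+ T cells of 4 libraries were prepared with the 10x Genomics 3′ kit. Per the submitters' processing notes, bcl2fastq 2.17 and Cell Ranger 2.2.0 were used on mm10. No source used here gives the annotation version. The deposited values are raw counts of UMIs for each gene and each of 737280 barcodes, which the authors had neither filtered nor normalized.

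Cells were clustered in each library with Seurat 5.3.0 (2000 variable genes without the members, 15 principal components, 20 neighbours, resolution 0.8). A cluster was named from a marker list when 3 or more of its markers were 2-fold or more above the remaining cells and present in 10% or more of the cluster, with at least 1 among its 10 leading genes. A cycling cluster with more leading erythroid or basophil than cycling genes was set aside (129 cells in WT1, 168 in KO1 and 183 in KO2). In WT2 a cluster of 470 cells with 3 leading erythroid and 4 leading cycling genes was kept, and the cycling class thus held different clusters in each library. This rule, the Lyz2-led class and the basophil list were decided with the clusters in view. Smaller clusters, each below 1% of its library, did not enter the classes, and doublets were not called.

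UMIs were summed per library, or per library and class of 20 or more cells. The sums were fitted in edgeR 4.0.16 (TMM, filterByExpr, quasi-likelihood, Benjamini-Hochberg over all genes tested), with standard errors derived from the F statistic. DESeq2 1.42.0 was an alternative. The sample titles give a genotype and a number, and libraries of the same number were taken as a pair from 1 chimera. Over 6863 genes the deviations of the libraries within a genotype correlated between genotypes (Pearson r = 0.291). The study sorted both genotypes from the same animal but states no test between libraries with a block, so the fit without it comes first and calls with it are given beside. The fits were also run on simulated counts drawn without a difference between chimeras. That run therefore does not show how the fits behave on these paired libraries. Intervals cover counting error only.

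Members, lists and tests were chosen with earlier results of these data known. The rule for genes named took the members, Bcl3, at most 3 genes per list by lowest p with the block, Nmt2, Cdk2ap2, Prkcq, Prkch, Prkcb, Rarg, Rxra, Rxrb and Ppa2 as paralogs or partners of the members, the nearest expressed neighbours and the genes of most similar pattern. Vars, Prkce, Prkcz, Rarb, Rxrg, Dcakd and the near-copies of Cdk2ap1 lie outside it and were named after their values were seen.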

Additional observations from a re-analysis of the deposited data

How the results depend on the processing

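With 2 chimeras, the number of genes called between genotypes depended on the fit. It was 42 without a block, 1116 with the chimera as a replicate block, 209 in DESeq2, 80 without TMM, 15 without other cell types, and 1249 without other cell types and with the replicate block, a setting chosen after seeing the data. Leaving out 1 library gave 40 (without WT2) to 229 (without WT1). With the replicate block, 3 genes of the N-myristoylation list, 1 of CDK2 and NuRD, 2 of protein kinase C, 3 of retinoic acid and 4 of pyrophosphate passed, and without other cell types these were 6, 1, 2, 4 and 4. In the fit without the block, where 0 genes of each list passed, leaving out 1 library gave 0 to 1 for N-myristoylation and pyrophosphate, with the 1 in each reached without WT1. Without the block, the log2 ratio with 1 library left out was 1.297 to 1.42 for Nmt1, 1.457 to 1.635 for Cdk2ap1, 0.797 to 1.05 for Prkcd, 0.714 to 0.858 for Rara and -0.625 to -0.583 for Ppa1. The members were chosen for a like difference in both chimeras of these libraries, so ranges of 1 sign follow from the choice and are a description.

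For classes against the reference, 13 contrasts of members passed, 6 when thinned to 1000 UMIs and 10 to 12 with 1 library left out, and over all genes 14162, 7123 and 11464 to 11775. Among contrasts that were not called, Rara in B cell-like cells turned negative without TMM (-0.077), without a filter on low counts (-0.081), thinned to 1000 UMIs (-0.148) and without cells over 3 times the median UMIs (-0.009), and ran from -0.327 to 0.181 with 1 library left out. Cdk2ap1 in MPEC-gene cells turned positive when thinned (0.294), at resolution 1.2 (0.053) and with 30 principal components (0.008), and Nmt1 there when thinned (0.144). With 1 library left out, Nmt1 ran from -0.244 to 0.006 in B cell-like and from -0.118 to 0.04 in MPEC-gene cells, and Prkcd from -0.09 to 0.026 in MPEC-gene and from -0.081 to 0.029 in interferon-stimulated cells. Of genotype by class terms, 21 passed over all genes, 43 when thinned, 60 at resolution 1.2 and 8 to 61 with 1 library left out, and 0 of the members in each. The Prkcd term in the Lyz2-led class turned to 0.125 when thinned. The share of cells with a UMI, as a ratio of mutant to WT, was 2.524 for Nmt1 at 1000 UMIs, 2.687 without thinning and 2.723 at 1500 UMIs. Without thinning it was 1.891 for Rara and 0.781 for Ppa1. With the set-aside clusters kept as cycling, 14 contrasts of members passed, and 13 without the erythroid-led cycling cluster of WT2, both choices added after seeing the data. The causes were not tested.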
